A study of Rattus norvegicus with 9 samples.

Results

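The dorsal hippocampus of rats whose mothers had received valproic acid (VPA) was compared with that of control rats, gene by gene. VPA, a drug against epilepsy, inhibits histone deacetylases, the enzymes that remove acetyl groups from histones, and exposure before birth is used in rodents as a model of autism. The hippocampus holds pyramidal neurons in the fields CA1 to CA3 and granule neurons in the dentate gyrus, and its dorsal part is known for spatial memory. It borders the thalamus and the ventricle, where the choroid plexus secretes cerebrospinal fluid and a ciliated ependyma lines the wall. Neurons there switch on immediate early genes within minutes of firing, and the products of these genes feed into plasticity.

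Each of 9 male Sprague-Dawley rats aged 8 weeks gave 1 array, with 3 rats per group and RNA taken on postnatal day 56. Mothers of the VPA rats were given VPA once by mouth at 600 mg/kg in mid-gestation, and those of the control rats were given water. Control rats and vehicle-treated VPA rats both received intranasal vehicle, and a further group of VPA rats had received intranasal oxytocin (OXT), whose arrays enter the fit and are set beside some values. The 3 control rats came from 2 water-treated dams, so at least 2 of them were littermates. The rats of both VPA groups came from 3 VPA-treated dams. The litter of each array is unknown, and the tests treat pups as independent.

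The 6 arrays of these groups, of 9 in the series, were compared over all genes that the array names singly, which gave 18166 genes of the 30429 probe sets of the table. Each gene was read from 1 probe set, the one with the highest mean over the 9 arrays. Values are log2 expression, so a difference of 1 is 2-fold, and every difference is vehicle-treated VPA minus control from limma with its standard error (SE). A gene is called higher or lower at an unadjusted p under 0.05, and the adjusted p beside it covers all probe sets. In tissue RNA, fewer cells of a type and less RNA per cell cannot be told apart.

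Most markers of the dissected tissue reached the level that the study required of a gene. Of 11 measured CA1 markers 9 had a mean over 6.6, that level, in at least 1 of the compared groups, as did 9 of 13 dentate granule cell markers. The dentate transcription factor gene Prox1 was at 8.35, 8.17 and 8.64 in the control arrays and at 8.58, 8.26 and 8.32 in the vehicle-treated VPA arrays, a difference of 0.00 (SE 0.14). Among the 6 arrays, vehicle-treated VPA replicate 3 stood apart. Across probe sets it correlated with a further array of its group at as little as 0.9827, against 0.9913 or more between control arrays, and the median SD of a gene was 0.132 among the vehicle-treated VPA rats and 0.095 among control rats. Markers of neighboring tissue also varied between arrays, and their values are given with the thalamus, the choroid plexus and myelin.

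Prenatal VPA went with many small differences and a few large ones. Of the 18166 genes, 1601 passed (8.81%), of which 670 were higher (3.69%) and 931 were lower (5.12%) in the vehicle-treated VPA rats. The median size of the difference among these genes was 0.36, 266 of them differed by more than 1.5-fold, and 47 by more than 2-fold. At an adjusted p under 0.05 there was no gene (0 by limma), and the smallest adjusted p was 0.0655. All 3 vehicle-treated VPA arrays lay above all 3 control arrays for 1007 genes (5.54%) and below them for 1655 genes (9.11%). The criteria of the study, an unadjusted p under 0.05 for the F over the 3 groups, more than 1.5-fold and a mean over 6.6 in a group, were met by 144 genes (0.793%), 66 higher and 78 lower. Their balance depended on single arrays. Without vehicle-treated VPA replicate 3, 98 were higher and 39 were lower, and without vehicle-treated VPA replicate 2, 58 were higher and 124 were lower. When each of the 6 arrays was left out in turn, 577 of the 1601 genes kept their call every time, 259 higher and 318 lower. Genes that are said below to have kept their call are among these. Genes named below were partly chosen by a small p or by groups without overlap, so a lack of overlap in them is no separate support.

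**Figure D1:**
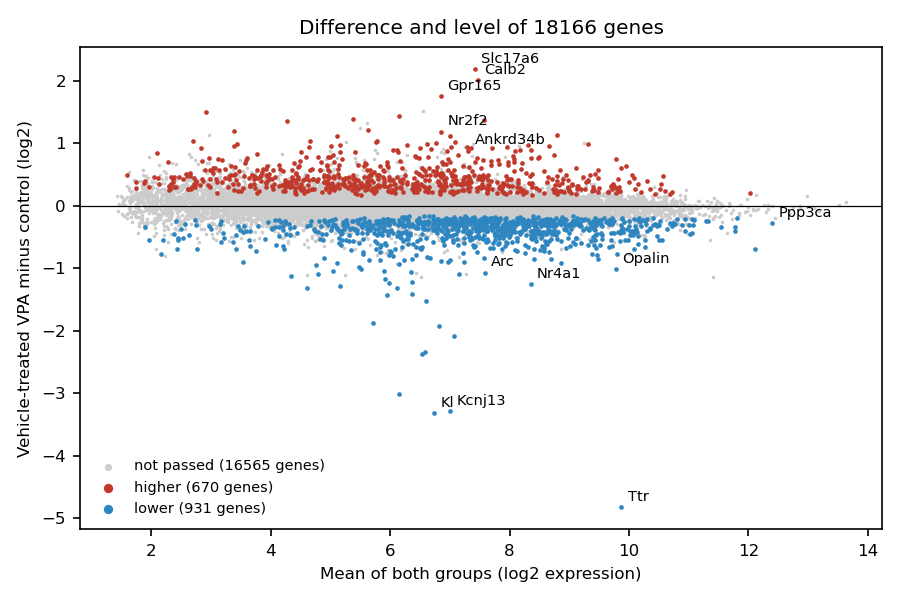
Each point is 1 of 18166 genes, with the mean of the 2 groups on the x axis and the difference of vehicle-treated VPA minus control on the y axis, both on the log2 scale. Red points are the 670 higher genes and blue points the 931 lower genes at an unadjusted p under 0.05, and the lowest point is Ttr at -4.82.

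The direction of the called genes moved with their level. Among 4376 genes with a mean under 5, 181 were higher and 68 were lower. Among 568 genes with a mean over 10, 20 were higher and 79 were lower, and the share of genes called there was 17.4%, against 5.69% of the low ones. The plot of difference against level shows this as red points on the left and blue points on the right.

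The genes with the smallest p values had narrow groups that lay far apart, which is what a small p selects. Ankrd34b, which encodes an ankyrin repeat protein, was at 6.81, 6.89 and 6.90 in the control arrays and at 7.76, 7.83 and 7.65 in the vehicle-treated VPA arrays. Nr2f2, the gene of the nuclear receptor COUP-TFII that patterns the developing forebrain, was at 6.30, 6.37 and 6.12 in control and at 7.50, 7.60 and 7.24 in the vehicle-treated VPA rats. For both genes every VPA array lay above every control array, with a gap wider than either group. The difference was 0.88 for Ankrd34b (SE 0.08, adjusted p = 0.0655) and 1.18 for Nr2f2 (SE 0.12, adjusted p = 0.0655), or 1.84-fold and 2.27-fold. Both had similar levels in the OXT-treated VPA rats, with 7.66, 7.73 and 7.81 for Ankrd34b and 7.45, 7.32 and 7.23 for Nr2f2, against the same control arrays.

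Other genes at the head of the higher side were Slc35g2, a solute carrier gene, Adgra1, an adhesion G protein-coupled receptor gene, and Npsr1, the receptor gene of neuropeptide S. Slc35g2 was at 6.17, 6.01 and 6.16 in control and at 7.07, 7.06 and 7.18 in the vehicle-treated VPA rats (difference 0.99, SE 0.11, adjusted p = 0.134). Adgra1 differed by 0.66 (SE 0.09) and Npsr1 by 0.77 (SE 0.10), both at the same adjusted p, and all Npsr1 values were low, between 4.46 and 5.48. On the lower side the smallest p values belonged to Renbp, a sugar epimerase gene, Itgb6, an integrin gene, Pak5, a kinase gene of neurons, Trhde, which encodes the peptidase that degrades thyrotropin-releasing hormone, and Grm3, a metabotropic glutamate receptor gene. Renbp was at 6.52, 6.58 and 6.59 in control, at 6.12, 6.07 and 6.10 in the vehicle-treated VPA rats, and at 6.47, 6.46 and 6.41 in the OXT-treated VPA rats. Grm3 was at 10.04, 10.02 and 10.15 in control and at 9.58, 9.62 and 9.71 in the vehicle-treated VPA rats, a difference of -0.43 (SE 0.07) that kept its call without any 1 array. In these genes too the arrays of the groups did not overlap.

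**Figure D2:**
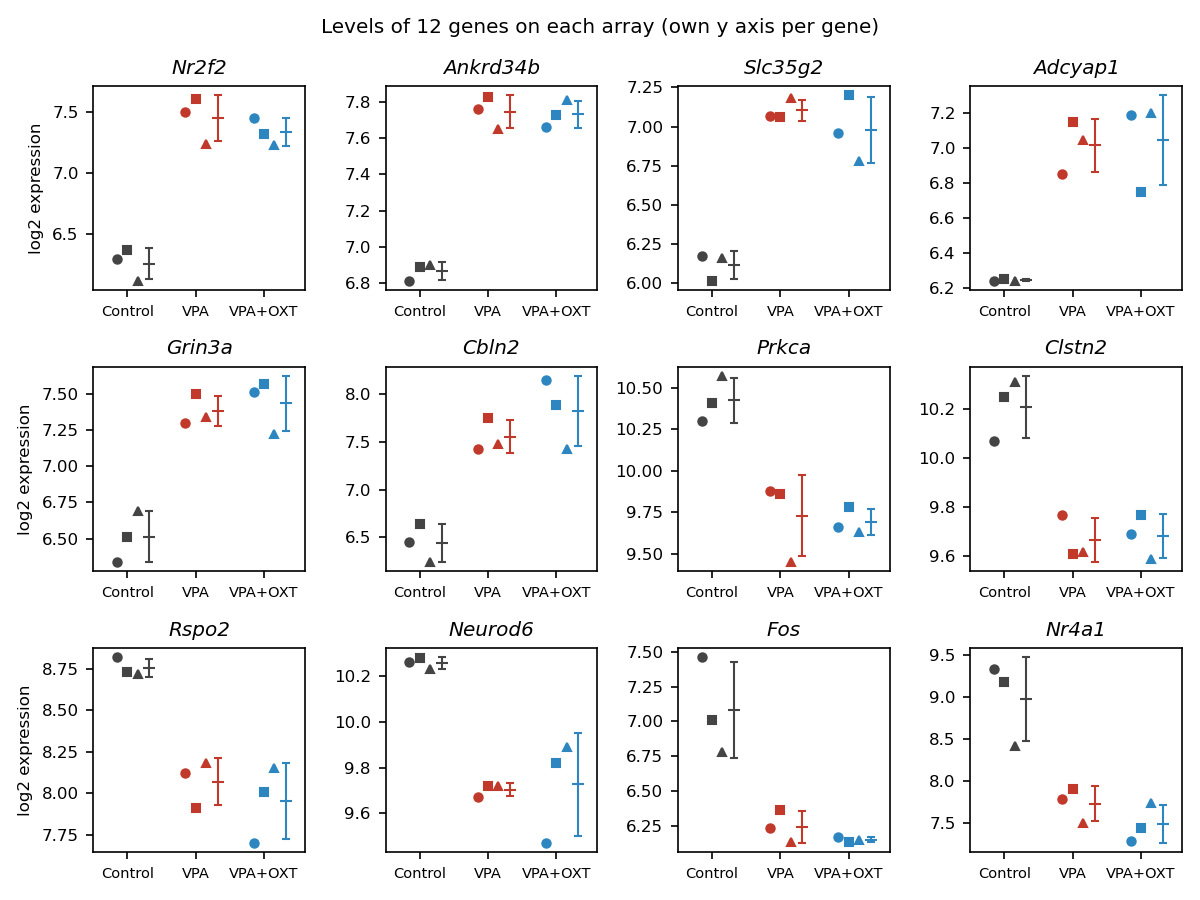
Log2 expression of 12 genes on each array (circle, square and triangle are replicates 1, 2 and 3), with the mean and SD of each group beside the points and a y axis of its own for each gene. For all 12 genes the 3 vehicle-treated VPA arrays lay on one side of the 3 control arrays, above them from Nr2f2 to Cbln2 and below them from Prkca to Nr4a1. Named genes were chosen in part for such a gap or a small p.

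To describe the genes by function, 61 lists of cell type markers, gene families and pathways were counted. Each count is read beside the shares of all genes, 3.69% higher and 5.12% lower, and the median difference of all genes was -0.013. Lists and members were chosen with earlier results of these data known, so these counts are descriptions and no test.

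**Figure D3:**
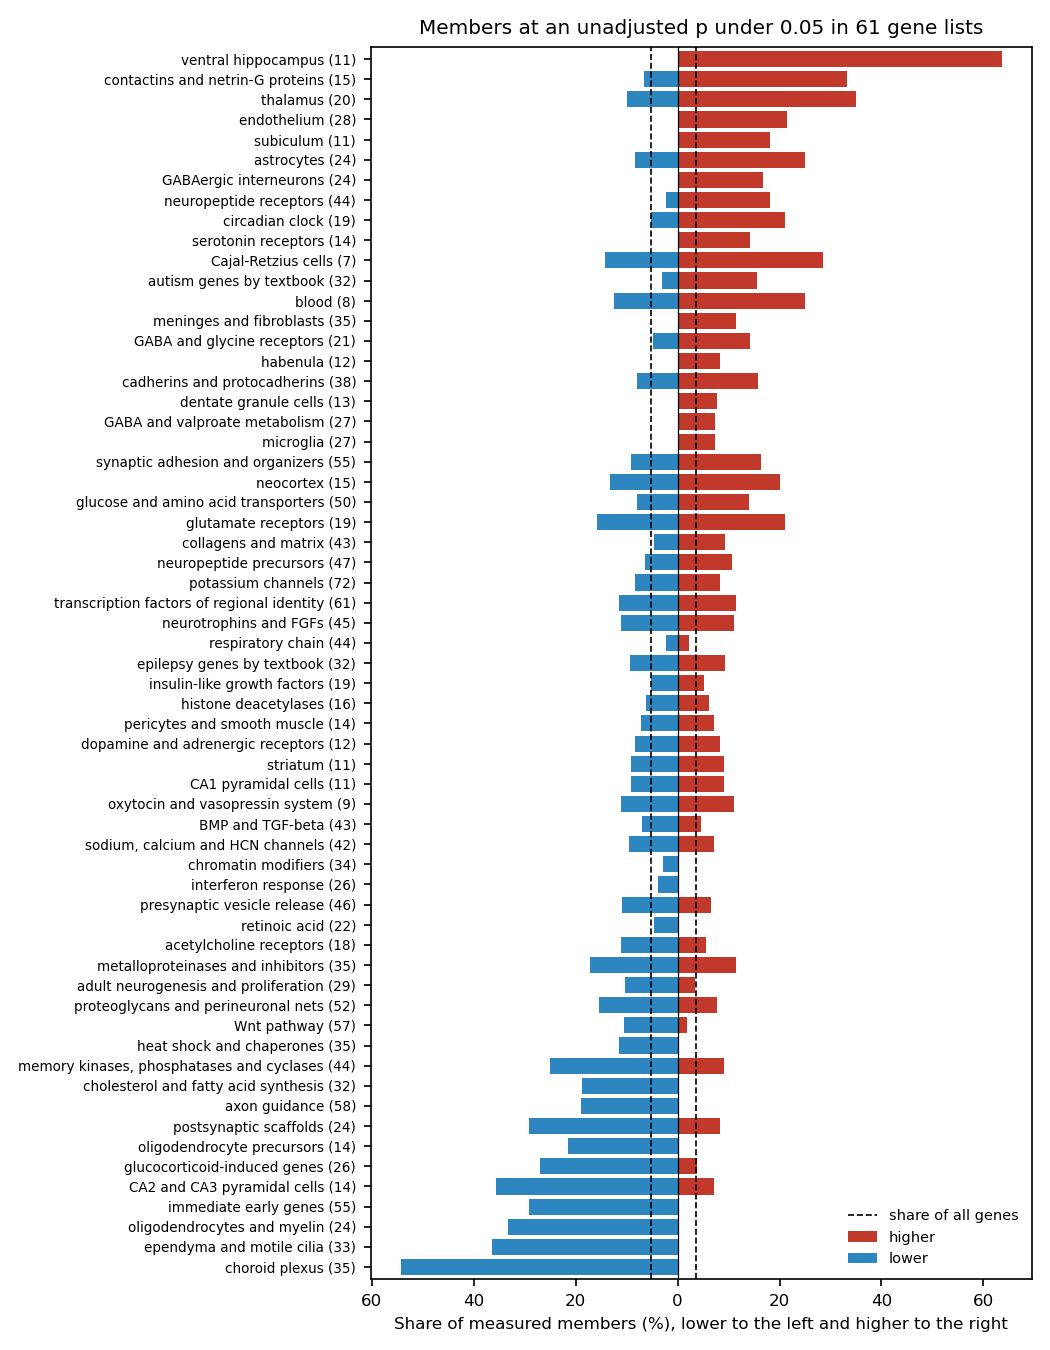
Share of the measured members (number in parentheses) of 61 gene lists that were lower (blue, to the left) or higher (red, to the right) at an unadjusted p under 0.05, in percent. Dashed lines mark the same shares of all genes, and the ends of the plot are ventral hippocampus with 7 of 11 higher and choroid plexus with 19 of 35 lower.

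Genes known to be stronger in the ventral than in the dorsal hippocampus of rodents were higher in the vehicle-treated VPA rats. Of 11 measured members of this list 7 were higher and 0 were lower, with a median of 0.77 (0.50 without vehicle-treated VPA replicate 3), and the list mean was 6.59 to 6.81 on control arrays against 7.27 to 7.48 for VPA with vehicle. Nr2f2 is one of them. Another is Calb2, which is also on the lists of thalamus, habenula and Cajal-Retzius cells and whose values are given with the thalamus. Lypd1, a modulator of nicotinic receptors, was at 6.71, 6.64 and 6.83 in control and at 7.16, 7.81 and 7.63 in the vehicle-treated VPA rats (difference 0.81, SE 0.16, adjusted p = 0.146). Galr1, a receptor gene of the peptide galanin, was at 5.73, 5.83 and 6.57 in control and at 7.17, 6.71 and 7.0 in the vehicle-treated VPA rats (difference 0.92, SE 0.25, adjusted p = 0.316). For each of these genes the lowest VPA array was above the highest control array. Nr2f2, Lypd1, Galr1 and Calb2 kept their calls, while Htr2c, Trhr and Etv1 did not pass without control replicate 2 or 3, nor Htr2c without any vehicle-treated VPA replicate, nor Etv1 without vehicle-treated VPA replicate 2 or 3. The count of higher members was 4 without control replicate 2 and 4 without control replicate 3, where 1 member was lower. The mean of the list was also high in the OXT-treated VPA arrays, between 7.36 and 7.56. The part of the dissection in these values was not tested.

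Markers of the thalamus varied among the vehicle-treated VPA arrays themselves. The mean of the list was 7.69, 7.33 and 6.54 in vehicle-treated VPA replicates 1, 2 and 3 and between 6.41 and 6.72 in control, so that replicate 3 lay inside the control range. Of 20 measured members 7 were higher and 2 were lower, with a median of 0.56. Without control replicate 2 the higher count was 4. The median was 0.28 without vehicle-treated VPA replicate 1 and 0.95 without replicate 3, when 10 were higher. Its defining transcription factor gene Tcf7l2 was at 8.83, 8.52 and 6.30 in the vehicle-treated VPA rats and between 6.72 and 7.07 in control, and did not pass (difference 0.99, SE 0.82). Replicate 3 was also the lowest of the vehicle-treated VPA arrays in Slc17a6 and Calb2. Slc17a6, the vesicular glutamate transporter gene of thalamic and subicular neurons, was at 8.99, 8.86 and 7.67 against 6.77, 6.09 and 6.10 in control (difference 2.19, SE 0.50, adjusted p = 0.215). Calb2, the calretinin gene of interneurons and of midline thalamus, was at 9.09, 9.13 and 7.22 against 6.65, 6.12 and 6.64 (difference 2.01, SE 0.56, adjusted p = 0.329). In both genes replicate 3 was still above control. The part of thalamic RNA in these values was not tested.

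Calb1, the calbindin gene of granule and CA1 neurons, was at 9.45 in vehicle-treated VPA replicate 3, above 8.91 and 9.07 in replicates 1 and 2, against 8.25 to 8.41 in control (difference 0.81, SE 0.17, adjusted p = 0.188). The BMP-binding protein gene Vwc2l was at 7.51 in replicate 3, above 6.40 and 6.67, against 5.28 to 5.57 in control (difference 1.43, SE 0.30, adjusted p = 0.192). All 3 VPA arrays of both genes were above control.

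Genes of the CA2 and CA3 fields leaned the other way. Of 14 measured members 5 were lower and 1 was higher, with a median of -0.17 (-0.10 without vehicle-treated VPA replicate 3), and the lower count was between 4 and 6 when 1 of the 6 arrays was left out. The higher member was Trhr, which is also on the ventral hippocampus list. The list mean overlapped between the groups, at 7.34 to 7.52 on control arrays and 7.11 to 7.37 for VPA with vehicle. Cpne4, a calcium-dependent membrane-binding protein gene, was at 8.72, 8.74 and 9.12 in control and at 8.18, 8.07 and 8.22 in the vehicle-treated VPA rats (difference -0.70, SE 0.13, adjusted p = 0.134). Rgs14, a regulator of G protein signaling that marks CA2, was at 7.67, 7.92 and 8.39 in control and at 7.32, 7.36 and 6.80 in the vehicle-treated VPA rats (difference -0.83, SE 0.21, adjusted p = 0.269). The groups were apart in both. Other CA2 genes did not follow, with differences of 0.15 for Pcp4 (SE 0.20) and -0.22 for Amigo2 (SE 0.35). Of the 11 CA1 markers 1 was higher and 1 was lower, or 5 lower without control replicate 3, and of the 13 dentate markers 1 was higher. The CA1 marker Wfs1 had a wide spread within control, at 10.89, 10.78 and 9.48, and did not pass at a difference of -0.77 (SE 0.51).

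Transcription factors that give forebrain regions their identity were called in both directions, with 7 higher and 7 lower of 61 measured. Neurod6, which marks pyramidal neurons, was at 10.26, 10.28 and 10.23 in control and at 9.67, 9.72 and 9.72 in the vehicle-treated VPA rats (difference -0.55, SE 0.11, adjusted p = 0.163). Lhx2, a LIM homeobox gene required for the hippocampus, was lower, with a difference of -0.42 (SE 0.13), and Nr2f1, the close relative of Nr2f2, was higher by 0.32 (SE 0.09). Ebf3 was higher by 1.11 (SE 0.31) from a low level, at 4.48, 4.66 and 4.51 in control. These 4 genes kept their calls, but the higher count was 3 without vehicle-treated VPA replicate 2, 3 without control replicate 2 and 4 without control replicate 3, and the lower count was 4 without vehicle-treated VPA replicate 1 and 3 without control replicate 3.

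Neuropeptide genes showed single strong differences. Adcyap1, which encodes the peptide PACAP, was at 6.24, 6.25 and 6.24 in control and at 6.85, 7.15 and 7.05 in the vehicle-treated VPA rats (difference 0.77, SE 0.13, adjusted p = 0.134). Scg2, a granin of dense-core vesicles, was higher by 0.43 (SE 0.09, adjusted p = 0.169), and Tac1, the substance P precursor gene, by 0.96 (SE 0.25) at levels between 4.41 and 5.66. Avp, the vasopressin gene, was lower, with a difference of -0.47 (SE 0.15) and was at 5.59 to 5.68 in the vehicle-treated VPA arrays. Oxt did not pass, at 6.39, 6.41 and 6.29 in control and 6.26, 5.95 and 5.75 in the vehicle-treated VPA rats (difference -0.38, SE 0.17), nor did its receptor gene Oxtr (difference 0.33, SE 0.18). Of 47 peptide precursors 5 were higher and 3 were lower, and the lower count was 1 without control replicate 3. Among 44 peptide receptors 8 were higher and 1 was lower, with 5 higher without control replicate 2 and 5 without control replicate 3. Besides Galr1, the opioid-type receptor genes Oprl1 and Oprk1 kept their calls, at differences of 0.40 (SE 0.10) and 0.41 (SE 0.12).

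Among 19 receptors for glutamate 4 were higher and 3 were lower, and both counts stayed at 3 or 4 when any array was left out. Grin3a, an NMDA receptor subunit gene expressed early in life, was at 6.34, 6.51 and 6.69 in control and at 7.30, 7.50 and 7.34 in the vehicle-treated VPA rats (difference 0.87, SE 0.13, adjusted p = 0.134). Grm8, a presynaptic metabotropic receptor gene, was at 6.6, 6.75 and 6.38 in control and at 7.32, 7.50 and 7.95 in the vehicle-treated VPA rats (difference 1.01, SE 0.16, adjusted p = 0.134). Grin2a and the kainate receptor gene Grik4 of CA3 were lower, with differences of -0.47 (SE 0.13) and -0.57 (SE 0.11), and the kainate receptor gene Grik1 was higher by 0.51 (SE 0.10). The GABA-A receptor subunit genes Gabrg3 and Gabrb2 were higher by 0.68 (SE 0.12, adjusted p = 0.134) and 0.39 (SE 0.11). Gad1, the gene of the enzyme that makes GABA, was at 8.86, 9.08 and 9.07 in control and at 9.48, 9.56 and 9.36 in the vehicle-treated VPA rats (difference 0.46, SE 0.10, adjusted p = 0.215). None of these genes had overlapping groups.

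Ion channel genes were called in both directions at similar counts. Of 72 potassium channel genes 6 were higher and 6 were lower, and the higher count was 10 without vehicle-treated VPA replicate 3. Kcnk9, a leak channel gene, was at 7.16, 7.10 and 6.95 in control and at 7.67, 7.73 and 8.08 in the vehicle-treated VPA rats (difference 0.76, SE 0.12, adjusted p = 0.134). Kcnn3, a calcium-activated channel gene, was higher by 0.46 (SE 0.12), and Kcnt2, a sodium-activated one, was lower, with a difference of -0.44 (SE 0.13). Scn1a, the gene of the sodium channel of fast-spiking interneurons, was at 7.72, 7.68 and 7.77 in control and at 8.73, 8.38 and 8.16 in the vehicle-treated VPA rats (difference 0.70, SE 0.20, adjusted p = 0.332). Cacna1g, a T-type calcium channel gene, was higher by 0.42 (SE 0.11).

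Adhesion molecules of synapses were called in both directions. Of 55 genes of synaptic adhesion 9 were higher and 5 were lower, with 2 lower without vehicle-treated VPA replicate 3 and 3 without control replicate 1. Of 38 cadherins and protocadherins 6 were higher and 3 were lower, with 2 higher without control replicate 2 and 5 lower without control replicate 3. Contactins and netrin-G proteins, which are adhesion molecules anchored at the neuronal surface, had 5 higher and 1 lower of 15 measured, and the higher count stayed between 4 and 6 without any 1 array. Cntn6 was at 5.60, 5.71 and 5.70 in control and at 6.31, 6.65 and 6.72 in the vehicle-treated VPA rats (difference 0.89, SE 0.14, adjusted p = 0.134). Cntn3 was higher by 0.75 (SE 0.17), Cntn4 by 0.41 (SE 0.12) and Ntng1, which is also on the thalamus list, by 0.87 (SE 0.25). Cerebellins bind neurexins across the synapse, and Cbln2 was at 6.45, 6.64 and 6.24 in control and at 7.43, 7.75 and 7.48 in the vehicle-treated VPA rats (difference 1.11, SE 0.19, adjusted p = 0.134). Cbln1 was higher by 1.03 (SE 0.24, adjusted p = 0.215). Clstn2, a calsyntenin gene, was lower, at 10.07, 10.25 and 10.31 in control and 9.77, 9.61 and 9.62 in the vehicle-treated VPA rats (difference -0.54, SE 0.09, adjusted p = 0.134), as was the neuronal pentraxin gene Nptx1 (difference -0.39, SE 0.09). The cadherin gene Cdh7, which is also on the thalamus list, was higher by 1.37 (SE 0.24, adjusted p = 0.134).

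Axon guidance genes, which code for semaphorins, ephrins, slits, netrins and their receptors, had 0 higher and 11 lower of 58 measured, with a median of -0.13 (-0.08 without control replicate 3). The lower count was between 8 and 11 when 1 array was left out, and 7 members kept their call each time. Sema7a was at 9.65, 9.83 and 9.91 in control and at 9.41, 9.17 and 8.76 in the vehicle-treated VPA rats (difference -0.68, SE 0.16, adjusted p = 0.222). The ephrin receptor genes Epha4, Epha5 and Epha7 were lower, with differences of -0.37 (SE 0.09), -0.32 (SE 0.10) and -0.37 (SE 0.11), and so was Sema3e (difference -0.40, SE 0.09). For Epha4 the control arrays were at 10.33, 10.28 and 10.30 and the VPA arrays at 10.03, 9.93 and 9.85, a narrow but complete gap.

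Kinases, phosphatases and cyclases of memory had 11 lower and 4 higher of 44 measured, with 8 to 11 lower and 3 or 4 higher when 1 array was left out. Prkca, a protein kinase C gene, was at 10.30, 10.41 and 10.57 in control and at 9.88, 9.86 and 9.45 in the vehicle-treated VPA rats (difference -0.70, SE 0.13, adjusted p = 0.134). Prkce was lower, with a difference of -0.31 (SE 0.10) and so was Camk1d, a calcium-calmodulin kinase gene (difference -0.32, SE 0.09). The adenylyl cyclase genes Adcy7 and Adcy8 were higher, by 0.46 (SE 0.09) and 0.63 (SE 0.16). Of 24 postsynaptic scaffold genes 7 were lower and 2 were higher. That lower count was 3 without control replicate 2, 4 without control replicate 1 and 4 without vehicle-treated VPA replicate 3, and Dlgap2, Baiap2 and Homer3 kept their calls, at differences of -0.40 (SE 0.09), -0.43 (SE 0.12) and -0.30 (SE 0.09). Shank3, the scaffold gene of a syndromic autism, did not pass (difference -0.14, SE 0.15). In the Wnt pathway the agonist gene Rspo2, at 8.82, 8.73 and 8.72 in control and 8.12, 7.91 and 8.18 in the vehicle-treated VPA rats, was lower, with a difference of -0.69 (SE 0.13, adjusted p = 0.134), as was Dkk3 (difference -0.56, SE 0.12).

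Immediate early genes were lower as a group of many single genes. Of 55 measured members 16 were lower and 0 were higher, with a median of -0.16, and the lower count was between 15 and 18 when any of the 6 arrays was left out. Fos, which encodes a subunit of the AP-1 factor, was at 7.46, 7.01 and 6.78 in control and at 6.23, 6.36 and 6.13 in the vehicle-treated VPA rats (difference -0.84, SE 0.16, adjusted p = 0.134). Nr4a3, an orphan nuclear receptor gene, was at 9.08, 8.98 and 8.76 in control and at 8.19, 8.33 and 8.11 in the vehicle-treated VPA rats (difference -0.73, SE 0.13, adjusted p = 0.134). Its relative Nr4a1 was at 9.34, 9.18 and 8.41 in control and at 7.78, 7.90 and 7.50 in the vehicle-treated VPA rats, lower with a difference of -1.25 (SE 0.24, adjusted p = 0.139). In all 3 genes the highest VPA array was below the lowest control array.

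**Figure D4:**
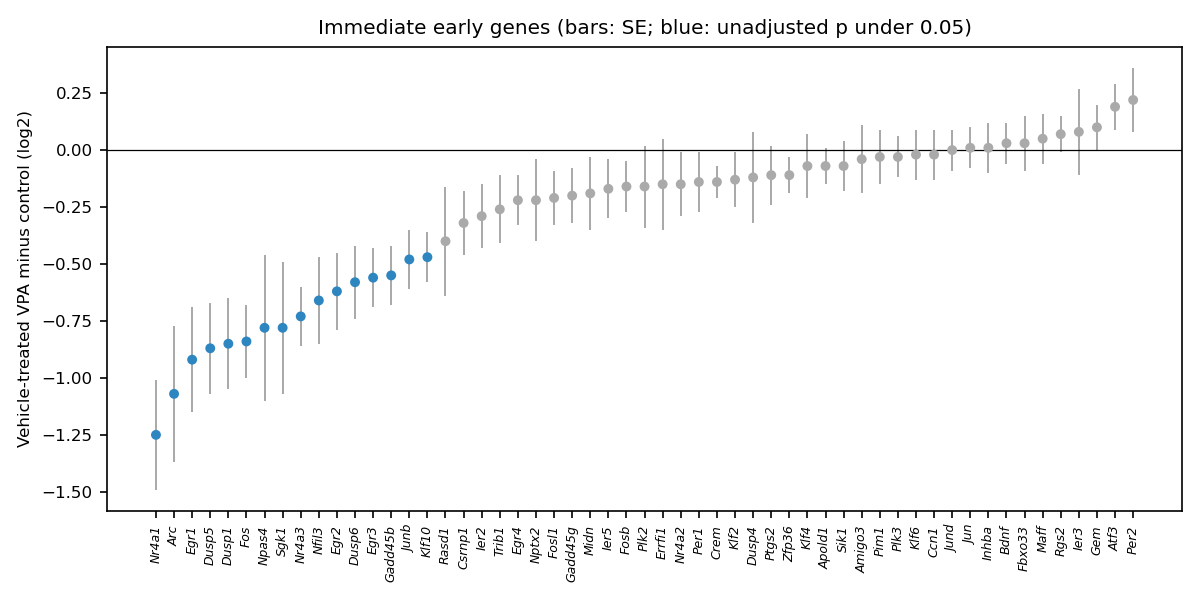
Log2 difference of vehicle-treated VPA minus control for the 55 measured immediate early genes, ordered by size, with SE as bars. The 16 blue genes passed at an unadjusted p under 0.05 and all lie below 0, from Nr4a1 at -1.25 upward, and no member above 0 passed.

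The zinc finger genes Egr1, Egr2 and Egr3 were lower, with differences of -0.92 (SE 0.23), -0.62 (SE 0.17) and -0.56 (SE 0.13). Arc, whose product traffics AMPA receptors, was at 8.60, 8.36 and 7.40 in control and at 7.11, 7.24 and 6.80 in the vehicle-treated VPA rats (difference -1.07, SE 0.30, adjusted p = 0.324). Control replicate 3 was the lowest control array in Fos, Nr4a1, Egr1, Egr2, Egr3 and Arc, so the control rats differed among themselves as well. The phosphatase genes Dusp1, Dusp5 and Dusp6, which switch off MAP kinases, were lower, with differences of -0.85 (SE 0.20), -0.87 (SE 0.20) and -0.58 (SE 0.16). Junb, Klf10, Gadd45b and Nfil3 also kept their calls, at differences of -0.48 (SE 0.13), -0.47 (SE 0.11), -0.55 (SE 0.13) and -0.66 (SE 0.19). Npas4, a neuronal factor gene (difference -0.78, SE 0.32), and Sgk1, a kinase gene (difference -0.78, SE 0.29), were called as well. Npas4 did not pass without control replicate 1 or 2 or vehicle-treated VPA replicate 1 or 2 (differences from -0.68 to -0.59), and Sgk1 did not pass without replicate 3 of either group. Jun and Bdnf did not pass, with differences of 0.01 (SE 0.09) and 0.03 (SE 0.09). In the OXT-treated VPA rats, against the same control arrays, Nr4a1 was at 7.28, 7.44 and 7.73 and Fos at 6.17, 6.13 and 6.15.

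Promoters of this family are known for the cAMP response element and for the CArG box of serum response factor, so these were searched on both strands from 250 bases before to 50 bases after the gene start in RefSeq sequences (build GRCr8). The core TGACG was found in 25 of 42 immediate early gene promoters at hand (59.5%) and in 25.4% of the promoters of 14564 measured genes. The full element TGACGTCA, which contains that core, was found in 5 of the 42 (11.9%) against 2.42%, and the CArG box in 5 (11.9%) against 1.37%. The 42 include members that did not pass, so these shares describe the family. Of all 746 lower genes with a promoter, 27.7% held the core, 2.95% the full element and 1.61% the CArG box, near the shares of measured genes. Of the 16 lower genes, Junb, Egr1, Egr2, Nr4a1, Dusp1, Dusp5, Gadd45b and Nfil3 held the core, and Dusp1 held the full element. The promoters of 4 genes are shown because these genes kept their calls and hold matches, with all matches to the TGACG core and the CArG box in capitals and positions counted from the gene start.
Nr4a1, chr7:134259888-134260187, plus strand, TGACG on either strand from -246, -226, -82 and -53: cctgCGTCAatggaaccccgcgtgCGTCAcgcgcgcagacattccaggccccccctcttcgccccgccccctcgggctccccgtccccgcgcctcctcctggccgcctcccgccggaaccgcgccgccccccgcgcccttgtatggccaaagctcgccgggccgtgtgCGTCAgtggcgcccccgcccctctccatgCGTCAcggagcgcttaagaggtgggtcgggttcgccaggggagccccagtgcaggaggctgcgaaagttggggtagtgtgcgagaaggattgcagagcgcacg
Dusp1, chr10:17184603-17184902, plus strand, TGACG on either strand from -172, -124 and -121: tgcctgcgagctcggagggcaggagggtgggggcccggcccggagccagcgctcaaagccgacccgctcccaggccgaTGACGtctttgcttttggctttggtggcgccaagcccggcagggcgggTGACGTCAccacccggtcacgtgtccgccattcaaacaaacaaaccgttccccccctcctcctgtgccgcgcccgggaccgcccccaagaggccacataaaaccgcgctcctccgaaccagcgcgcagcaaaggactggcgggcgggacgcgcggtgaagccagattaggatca
Egr1, chr18:26736828-26737127, plus strand, TGACG on either strand from -135 and -66 and CArG boxes from -105 and -83: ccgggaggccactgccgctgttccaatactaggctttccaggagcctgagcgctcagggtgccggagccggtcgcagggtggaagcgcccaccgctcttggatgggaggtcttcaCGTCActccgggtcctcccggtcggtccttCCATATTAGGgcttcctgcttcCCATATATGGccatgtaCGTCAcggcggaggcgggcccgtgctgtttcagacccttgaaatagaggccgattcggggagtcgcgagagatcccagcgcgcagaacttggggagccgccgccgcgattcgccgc
Egr2, chr20:21054392-21054691, minus strand, TGACG on either strand from -66 and a CArG box from -83: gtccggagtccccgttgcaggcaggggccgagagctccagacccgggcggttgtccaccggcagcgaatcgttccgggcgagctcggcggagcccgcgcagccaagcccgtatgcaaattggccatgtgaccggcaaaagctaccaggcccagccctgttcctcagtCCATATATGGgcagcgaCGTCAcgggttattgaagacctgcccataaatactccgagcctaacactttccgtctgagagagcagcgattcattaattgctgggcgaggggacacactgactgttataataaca
A match is a description of the sequence and shows no binding.

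Genes that glucocorticoids induce and clock genes were counted because stress and hour of collection can move such RNAs. Of 26 glucocorticoid genes 7 were lower and 1 was higher, with 4 lower without control replicate 3 and 4 without vehicle-treated VPA replicate 3, and Dusp1 and Sgk1 are on the immediate early list too. Nr3c2, the mineralocorticoid receptor gene, was at 9.77, 9.70 and 9.90 in control and at 9.41, 9.39 and 9.15 in the vehicle-treated VPA rats (difference -0.47, SE 0.11, adjusted p = 0.215). Ddit4, a stress-induced inhibitor of mTOR signaling, was lower, with a difference of -0.68 (SE 0.21), while Fkbp5 did not pass (difference -0.09, SE 0.15). Of 19 clock genes 4 were higher and 1 was lower. Dbp, an output gene of the clock, was at 9.54, 9.64 and 9.53 in control and at 10.27, 10.35 and 9.90 in the vehicle-treated VPA rats (difference 0.60, SE 0.15, adjusted p = 0.251), and Ciart and Nr1d1 were higher by 0.53 (SE 0.11) and 0.31 (SE 0.08). The hour of collection is not given in the sources used here, and its part in these genes was not tested.

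The largest falls in the whole comparison were of the choroid plexus. Of 35 measured markers 19 were lower and 0 were higher, with a median of -0.64, and the lower count was between 15 and 21 when 1 array was left out. Ttr, which encodes the thyroid hormone carrier transthyretin, was at 12.59, 12.23 and 12.03 in control and at 6.82, 8.76 and 6.80 in the vehicle-treated VPA rats (difference -4.82, SE 1.55, adjusted p = 0.397). Kcnj13, a potassium channel gene of this epithelium, was at 9.20, 8.64 and 8.10 in control and at 5.19, 5.83 and 5.07 in the vehicle-treated VPA rats (difference -3.28, SE 0.88, adjusted p = 0.311). Kl, which encodes the hormone co-receptor klotho, was at 8.99, 8.37 and 7.84 in control and at 5.03, 5.04 and 5.17 in the vehicle-treated VPA rats (difference -3.32, SE 0.90, adjusted p = 0.317). The bicarbonate transporter gene Slc4a5, the folate receptor gene Folr1 and the tight junction gene Cldn2 were lower, with differences of -3.01 (SE 0.78), -1.53 (SE 0.41) and -1.88 (SE 0.60). The control arrays were apart from the VPA arrays in each, and were themselves spread, with replicate 1 highest and replicate 3 lowest for Ttr, Kcnj13, Kl, Slc4a5, Folr1 and Cldn2. In the OXT-treated VPA rats, with the same controls, Ttr was at 12.83, 12.03 and 5.91, so that a single VPA group held both the high and the low level. The part of the dissection in these values was not tested. Otx2, a defining transcription factor gene of this epithelium that other structures also express, did not pass, at 7.80, 8.09 and 5.39 in the vehicle-treated VPA rats and 7.02 to 7.65 in control. Without the genes on the lists of choroid plexus, ependyma, thalamus, habenula, myelin and meninges, a selection made after the data were seen, 1549 genes passed, 659 higher and 890 lower, and 120 met the criteria of the study. This count cannot show the part of neighboring tissue, since it leaves out listed markers only. Of the called genes 1279 are on none of the 61 lists, and genes of these tissues among them stay in.

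**Figure D5:**
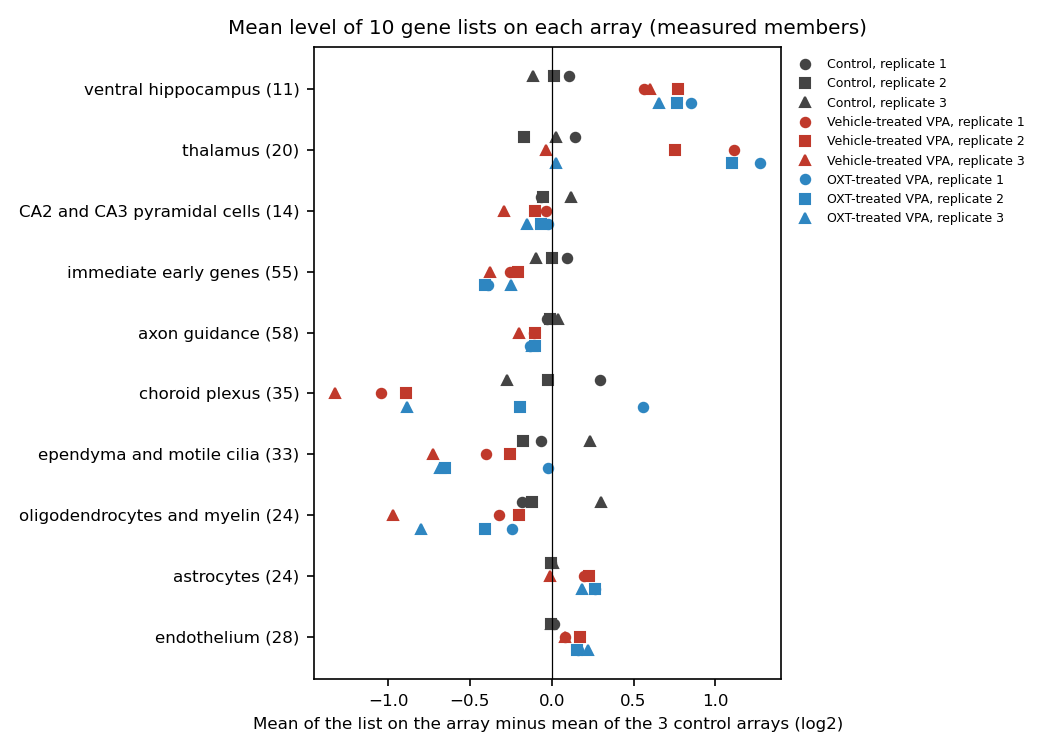
Mean log2 level of the measured members (number in parentheses) of 10 gene lists on each array, minus the mean of the 3 control arrays, with replicates 1, 2 and 3 as circle, square and triangle. Control is black, vehicle-treated VPA red and OXT-treated VPA blue. The vehicle-treated VPA arrays had list means of 7.27 to 7.48 for ventral hippocampus and 5.62 to 6.05 for choroid plexus before subtraction. They lay on one side of control except in the lists of thalamus, CA2 and CA3, and astrocytes. Replicate 3 lay within control for thalamus and below it for astrocytes, and replicate 1 lay within control for CA2 and CA3.

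Ependymal and myelin genes were lower with a strong part of single arrays. Of 33 measured genes of ependyma and motile cilia 12 were lower and 0 were higher, with a median of -0.35. That count was 3 without vehicle-treated VPA replicate 3, 4 without control replicate 3, 6 without control replicate 1 and 6 without vehicle-treated VPA replicate 1. Stoml3, a stomatin family gene, was at 6.46, 6.56 and 7.30 in control and at 5.49, 5.71 and 5.19 in the vehicle-treated VPA rats (difference -1.31, SE 0.29, adjusted p = 0.21) and kept its call. Of 24 genes of oligodendrocytes and myelin 8 were lower and 0 were higher, and 23 had a negative difference. The count was 2 without vehicle-treated VPA replicate 3 and 2 without control replicate 3, the arrays with the lowest and the highest list mean, at 8.29 and 9.56 against 8.94 to 9.14 in the others. Opalin, a membrane protein gene of oligodendrocytes, was at 10.18, 10.12 and 10.58 in control and at 9.21, 9.68 and 8.93 in the vehicle-treated VPA rats (difference -1.02, SE 0.25, adjusted p = 0.263). The main myelin gene Mbp did not pass, at 11.74, 11.73 and 12.09 in control and 11.68, 11.79 and 10.78 in the vehicle-treated VPA rats.

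Astrocyte and endothelial genes were more often higher than lower. Of 24 astrocyte genes 6 were higher and 2 were lower, with 4 to 7 higher when 1 array was left out. Grm3, given above as a receptor gene, is also on this list and was among the lower members. The list mean was 9.45 to 9.46 on control arrays and 9.65, 9.68 and 9.44 in vehicle-treated VPA replicates 1, 2 and 3. Agt, the angiotensinogen gene, was at 8.28, 8.06 and 8.20 in control and at 9.56, 9.43 and 8.40 in the vehicle-treated VPA rats (difference 0.95, SE 0.30, adjusted p = 0.387). Itih3, a hyaluronan-binding protein gene, was at 8.37, 8.25 and 8.05 against 9.72, 9.68 and 8.65 (difference 1.13, SE 0.31, adjusted p = 0.321). In both genes replicate 3 of the VPA rats was nearest to control, as for the thalamus list, and the part of thalamic RNA was not tested. Gfap did not pass (difference -0.20, SE 0.16). Of 28 endothelial genes 6 were higher and 0 were lower, but between 2 and 5 when 1 array was left out, with 2 without control replicate 2 and 3 without control replicate 1, control replicate 3, vehicle-treated VPA replicate 1 or vehicle-treated VPA replicate 2. Abcb1a, an efflux pump gene of the blood-brain barrier, was at 8.11, 8.01 and 7.90 in control and at 8.55, 8.44 and 8.61 in the vehicle-treated VPA rats (difference 0.53, SE 0.10, adjusted p = 0.134). Slc19a3, a thiamine transporter gene, was at 5.77, 5.98 and 6.36 in control, at 6.91, 6.96 and 6.59 in the vehicle-treated VPA rats (difference 0.78, SE 0.16, adjusted p = 0.172) and at 6.14, 6.24 and 6.36 in the OXT-treated VPA rats. Of 8 measured blood genes 2 were higher and 1 was lower, with a median of 0.10 and differences from -0.87 to 0.93. Hbb-b1, a hemoglobin gene of red cells whose close copies the array may not separate, was higher by 0.88 (SE 0.28).

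Transporter genes had 7 higher and 4 lower of 50 measured, with 6 or 7 higher and 3 to 6 lower when any array was left out. Slc8a3, a sodium-calcium exchanger gene, was at 6.25, 6.10 and 6.34 in control and at 7.07, 7.19 and 7.13 in the vehicle-treated VPA rats (difference 0.90, SE 0.14, adjusted p = 0.134), while its relative Slc8a2 was lower, with a difference of -0.30 (SE 0.09). Slc7a3, a carrier gene for basic amino acids, was at 5.75, 5.99 and 5.64 in control and at 6.65, 6.84 and 6.81 in the vehicle-treated VPA rats (difference 0.97, SE 0.24, adjusted p = 0.269). The glutamine carrier genes Slc38a1 and Slc38a2 were higher by 0.30 (SE 0.10) and 0.31 (SE 0.10), and Slc44a1, a choline carrier gene, was lower, with a difference of -0.43 (SE 0.12). The groups did not overlap in any of these transporter genes. In the matrix, Timp2, an inhibitor of metalloproteinases, was at 9.20, 9.29 and 9.06 in control and at 9.73, 9.73 and 9.61 in the vehicle-treated VPA rats (difference 0.51, SE 0.10, adjusted p = 0.157). The growth factor receptor genes Fgfr1 and Fgfr2 were lower, with differences of -0.45 (SE 0.14) and -0.58 (SE 0.17), and Nrg1, the neuregulin gene, was higher by 0.63 (SE 0.20).

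Genes of the enzymes that VPA inhibits were called near the background share, and those of the chromatin machinery under it. Of 16 histone deacetylase and sirtuin genes 1 was higher and 1 was lower, a share of 12.5% called beside 8.81% of all genes. Hdac1 was at 7.12, 6.92 and 7.25 in control and at 7.46, 7.48 and 7.54 in the vehicle-treated VPA rats (difference 0.40, SE 0.11, adjusted p = 0.311), without overlap, while Hdac2 differed by 0.01 (SE 0.10). Of 34 other chromatin modifiers 0 were higher and 1 was lower, of 44 respiratory chain genes 1 was higher and 1 was lower, and of 26 interferon response genes 0 were higher and 1 was lower, shares of 2.94%, 4.55% and 3.85% called beside 8.81% of all genes. Each of these counts was between 0 and 3 when 1 array was left out. Of 32 textbook autism genes 5 were higher and 1 was lower, of which Dscam, an adhesion gene, and Ahi1, a ciliary gene, kept their calls at 0.35 (SE 0.07) and 0.43 (SE 0.12). Ahi1 was at 8.62, 8.86 and 8.56 in control and at 9.19, 9.21 and 8.93 in the vehicle-treated VPA rats. The autism count was 2 without control replicate 3 and 3 without control replicate 2. Cholesterol and fatty acid synthesis had 0 higher and 6 lower of 32, but the count was 1 without control replicate 3, 2 without vehicle-treated VPA replicate 3 and 3 without vehicle-treated VPA replicate 1. Srebf2, the master regulator gene of cholesterol synthesis, was at 9.40, 9.52 and 9.44 in control and at 9.21, 9.13 and 8.97 in the vehicle-treated VPA rats (difference -0.35, SE 0.09, adjusted p = 0.26) and kept its call.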

How the data were processed

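Hippocampal RNA of 9 rats was hybridised to 9 Affymetrix Rat Gene 2.0 ST arrays, 3 per group, grouped by the labels. The authors deposited log2 expression values per probe set, rounded to 2 decimals and already normalized and summarized, and Affymetrix Expression Console is named in the submitters' processing notes. The summarization method, genome build and annotation are not given in the sources used here. Equalised array medians (5.75 to 5.82) mean that a shift of all genes would not be seen. Scanner files were not used here, so neither depth nor signal over background was known, and the number of arrays limits the precision.

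Genes were named from the platform annotation. Of 30429 probe sets 18511 had 1 symbol, 575 had several and 11343 had none, and the probe set with the highest mean was kept for each of 18166 genes. A model with 3 group means was fitted to all probe sets in limma 3.58.1 (R 4.3.3) with moderated variances and Benjamini-Hochberg adjustment over all probe sets, after a check on simulated data. A gene was called at an unadjusted p under 0.05. The p values set each difference against the pooled spread of pups within the 3 groups. Nothing tells which pups were littermates, so the spread between dams was not accounted for.

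Members and lists were chosen with earlier results of these data known. Genes were named by size (15 per direction past 1.5-fold and a mean of 6.6, without overlap), by p (5 per direction) and by list (the first 3 measured members and up to 5 with the smallest p), together with genes that the study wrote of. Arc, Camk1d, Dusp6, Egr1, Egr2, Egr3, Epha5, Gadd45b, Jun, Junb, Npas4, Otx2, Slc38a1, Slc38a2 and Slc8a2 were outside this rule and chosen after their values were seen. Alternatives were other scalings, filters, moderation, probe set rules, a replicate block and leaving out each array. Promoter and miRNA sequences are from RefSeq (GRCr8), matched by symbol or gene ID.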

Additional observations from a re-analysis of the deposited data

How the results depend on the processing

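The count of called genes, 1601, lay between 1439 and 1955 under the other scalings, moderations, probe set rules and filters except the filter on level, and between 1221 (without control replicate 3) and 1783 (without vehicle-treated VPA replicate 2) when 1 array was left out. Fitting only probe sets over 6.6 called 1239 genes, 367 higher and 872 lower, or 29.6% higher against 41.8% in the report. At an adjusted p under 0.05 limma called 63 genes with that filter, 25 with trend and robust moderation, and 2 each with array weights, without moderation, with 1 probe set per gene in the fit and with quantile normalization, and between 0 and 2 when 1 array was left out, the 2 being without vehicle-treated VPA replicate 3. With 2-fold in place of 1.5-fold, 25 genes met the criteria of the study. At 1.5-fold the lower genes among them were 46 with array weights and 39 without moderation, against 78. Non-overlapping arrays were found for 1231 genes above and 2016 below after quantile normalization, against 1007 and 1655. Between control and vehicle-treated VPA arrays, same-numbered deviations correlated between -0.0374 and -0.0136, and with the replicate block 1439 genes were called. The rats of those groups had different dams, so this comparison could not show littermates. Deviations of the OXT-treated VPA arrays were not compared, so pairing by number among the VPA groups was not tested. Replicates 3 of both VPA groups had thalamus list means of 6.54 and 6.6, against 7.33 to 7.85 in their other arrays. Groups of 3 arrays, unknown litters and neighboring tissue limit all values.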

Other observations

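Noticed after the values were seen, miRNA precursors between Dlk1 and Dio3, an imprinted region whose miRNAs are expressed from the maternal chromosome, were counted. Of 56 measured genes of the region 9 were higher and 0 were lower, 44 had a positive and 12 a negative difference, and the median was 0.23. The 53 precursors among them had 8 higher and 0 lower, 42 positive and 11 negative differences and a median of 0.22. Of all genes 3.69% were higher and 5.12% were lower. Only 3 of the 8, Mir434, Mir543 and Mir3578, kept their calls when any 1 array was left out. The other 310 precursors on the array had 18 higher and 5 lower, 197 positive and 112 negative differences and a median of 0.06. Levels were low, with only 2 of the 56 over 6.6 in a group. Low genes leaned higher in general, with 181 higher and 68 lower of all 4376 genes with a mean under 5. The mean of the 53 was 4.25, 4.20 and 4.10 on control arrays, 4.49, 4.34 and 4.35 for VPA with vehicle and 4.33, 4.36 and 4.13 for VPA with OXT. Mir434 was at 3.88, 4.46 and 4.04 in control and at 4.61, 4.86 and 5.06 in the vehicle-treated VPA rats (difference 0.72, SE 0.17, limma adjusted p = 0.223), and Mir543 at 4.27, 4.22 and 4.19 against 4.71, 4.83 and 4.53. The array reads the precursor and does not separate its arms, whose mature sequences are shown for these precursors with the seed, bases 2 to 8, in capitals.
rno-miR-434-5p, chr6:134330413-134330435, plus strand: aGCUCGACucaugguuugaacca
rno-miR-434-3p, chr6:134330451-134330472, plus strand: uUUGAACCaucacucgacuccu
rno-miR-543-5p, chr6:134552418-134552438, plus strand: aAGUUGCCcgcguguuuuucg
rno-miR-543-3p, chr6:134552453-134552473, plus strand: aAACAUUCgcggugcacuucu

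Of 49 imprinted genes written down after the values were seen, 35 were measured, 7 were higher and 0 were lower, with 24 positive differences and a median of 0.07. The shares of all genes were 3.69% higher and 5.12% lower. Usp29, Nap1l5, Grb10, Dlk1, Ndn and Kcnk9 kept their calls, at differences of 0.60, 0.96, 0.52, 0.31, 0.38 and 0.76, and Magel2 was called at 0.43 but not without control replicate 2 or 3 or vehicle-treated VPA replicate 1. These groups of genes were chosen for their direction, so their counts are descriptions.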
